A study of Mus musculus with 2 samples.

Results

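The cells described here are the non-mitotic, primary-granule-high cells of mouse MLL-AF9 acute myeloid leukemia, 439 of 7411 single cells with 500 or more detected genes. They were chosen on measured values. For each cell the UMIs (unique molecular identifiers, the tags by which captured transcripts are counted) of Mpo, Elane, Prtn3 and Ctsg were added and divided by all UMIs of the cell. The 10% of cells with the highest share were kept, 741 cells, and the 302 of them with a UMI of Top2a, Ube2c, Ccnb1, Birc5 or Nusap1, genes of chromosome condensation and cell division, were dropped. The levels of these 9 genes in the member cells are therefore a description of the choice and not a result. The study asked what loss of Kat2a, a histone acetyltransferase gene, does to transcript levels and to their variability between leukemia cells. Donor mice of both groups carried Kat2a Flox/Flox alleles, without Cre in the WT group (Mx1-Cre -/-) and with 1 copy of Mx1-Cre, a recombinase under an interferon-inducible promoter, in the KO group (Mx1-Cre+/-), and both groups received pIpC, the inducer. Their lineage-depleted marrow was collected 4 to 6 weeks later, transduced with an MLL-AF9 retrovirus and given to lethally irradiated recipients. Marrow of terminal leukemias was frozen, thawed and pooled, 5 leukemias for WT and 4 for KO, and live single cells expressing YFP were sorted and put into a 3′ library of 10x Genomics, 1 for each genotype. There was thus 1 library per genotype, so no comparison between genotypes has a replicate check, and genotype and pool cannot be told apart.

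Primary, or azurophil, granules are the first granules that a developing neutrophil makes. Their contents are transcribed early, at the promyelocyte stage, and include myeloperoxidase (Mpo), which makes hypochlorous acid, and the serine proteases neutrophil elastase (Elane), proteinase 3 (Prtn3) and cathepsin G (Ctsg), which are stored bound to the proteoglycan serglycin (Srgn). As normal granulocytes mature, these genes are switched off and genes for secondary and tertiary granules, such as Ltf, Camp, Ngp and Lcn2, are switched on from the myelocyte stage.

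The WT-labelled library gave 238 member cells, 975577 UMIs in all, and the KO-labelled library gave 201 members, 463804 UMIs in all. The members were deeper than the remaining kept cells and differed in depth between libraries, with medians of 3952 UMIs per cell in the WT-labelled library and 2109 in the KO-labelled library, against 2508 and 1873 in the other 3628 and 3344 kept cells. Of the 28 barcode sequences found in both libraries, 1 lay in a member cell. The barcode ending that marks each genotype was taken from the analysis code of the study, since the labels do not give it. Kat2a itself was higher in the KO-labelled library. The member cells held 15 Kat2a UMIs (15.4 CPM, UMIs scaled to a total of 1000000 for each set of cells) in the WT-labelled library and 59 (127 CPM) in the KO-labelled library, a log2 ratio of 3.05 (95% counting interval 2.21 to 3.97). Per the study, excision leaves a transcript that keeps the last exon, so a 3′ assay cannot quantify the knockout. These UMIs therefore cannot decide the assignment of barcode endings. Every direction between libraries given here rests on that assignment.

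Elane was by far the leading granule gene of the members. In the WT-labelled library its level was 28912 CPM (95% Poisson interval 28576 to 29252), and in the KO-labelled library it was 32134 CPM (31620 to 32654). Prtn3 had 6540 CPM in the WT-labelled library and 5356 CPM in the KO-labelled library. Ctsg had 6146 and 4043 CPM, and Mpo had 4791 and 6246 CPM, respectively. Elane supplied 62.3% of the UMIs of the 4 genes in the members of the WT-labelled library and 67.3% in KO-labelled members, and it was the most frequent of the 4 in 233 of 238 and 198 of 201 cells. Every member held an Elane UMI, whereas Mpo was detected in 211 of 238 members of the WT-labelled library (88.7%, exact binomial interval 83.9 to 92.4%) and in 172 of 201 of the KO-labelled library (85.6%, 79.9 to 90.1%), so that some members had no Mpo UMI at this depth.

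**Figure D1:**
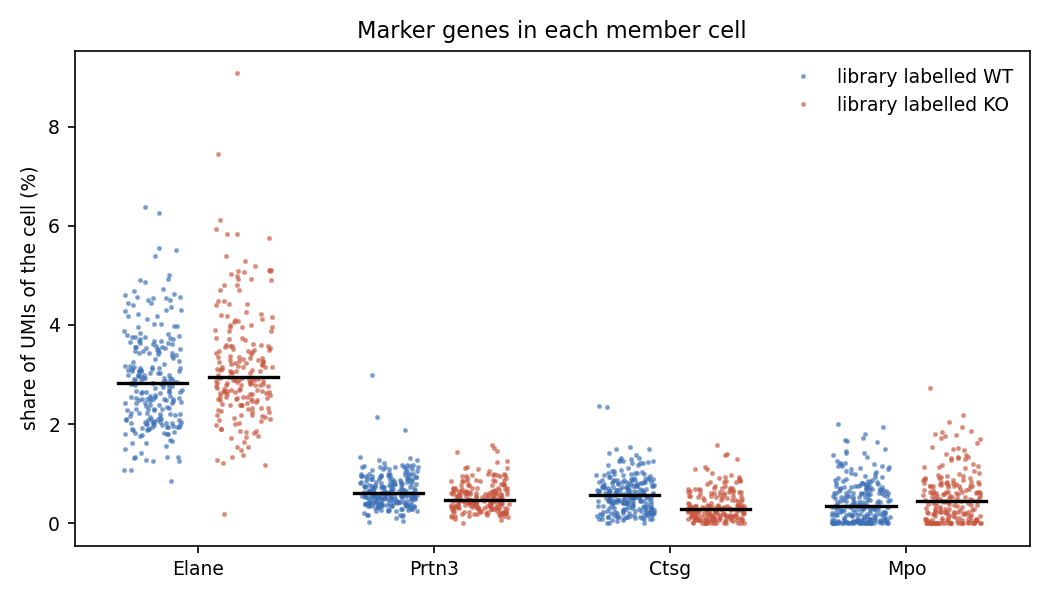
Share of all UMIs of a cell (vertical axis, percent) taken by Elane, Prtn3, Ctsg and Mpo in each of the 238 member cells of the WT-labelled library and the 201 of the KO-labelled library. Each point is 1 cell and the bar is the median, 2.83% and 2.94% for Elane and at most 0.61% for any other gene, and these values follow from how the cells were chosen.

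The 4 genes varied among members. The Elane share of a cell ran from 0.86 to 6.38% of its UMIs in the WT-labelled library, with the middle of the distribution between 2.15 and 3.53%, and from 0.18 to 9.08% in the KO-labelled library. The Mpo share ran from 0 to 2.01% and from 0 to 2.72%. In 1 member of the KO-labelled library Elane made up 5.66% of the UMIs of the 4 genes and in another 96.7%, so that cells of very different composition pass the same sum. The median summed share was 4.28% in the WT-labelled library and 4.21% in the KO-labelled library.

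Elane and Prtn3 are neighbours on chromosome 10, at 79886247 to 79888215 and 79874476 to 79883174 on the plus strand (GENCODE M21, GRCm38). Mpo lies on chromosome 11 at 87793581 to 87804413, plus strand, and Ctsg on chromosome 14 at 56099881 to 56102574, minus strand. Prss57, which encodes a further granule serine protease, lies within 100 kb of Elane and Prtn3, at 79781474 to 79790961 on the minus strand. Of the 5 other robustly detected genes (those found in 10% or more of kept cells) in that window, Prss57 was 1.5-fold or more higher in the members in both libraries, as were 1.69% of all robust genes outside the rule, R3hdm4 was 1.5-fold or more lower in both (5.54% of all were), and Palm, Ptbp1 and Wdr18 were neither. The 1 other robust gene within 100 kb of Mpo, Supt4a, was neither (log2 ratios of −0.19 and 0.32), and no other robust gene lay within 100 kb of Ctsg.

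The sequences before the starts of the 4 genes, which are high in the same cells, are shown with those of Ms4a3 and Nkg7, 2 of the 15 highest genes outside the rule. They are the 250 bases before the RefSeq start (GRCm38.p6), 5′ to 3′ on the strand of the gene, at chr11:87793534-87793783 (Mpo), chr10:79886062-79886311 (Elane), chr10:79879417-79879666 (Prtn3), chr14:56102575-56102824 (Ctsg), chr19:11640852-11641101 (Ms4a3) and chr7:43436888-43437137 (Nkg7). The RefSeq starts of Mpo, Elane and Prtn3 differ from the GENCODE gene starts given above. Capitals mark matches on either strand to GAGGAA, a core letter run of sites for the ETS factor PU.1, to TGTGGT for RUNX factors, to TTNNGNAA for C/EBP factors and to CAACTG for MYB.
Mpo: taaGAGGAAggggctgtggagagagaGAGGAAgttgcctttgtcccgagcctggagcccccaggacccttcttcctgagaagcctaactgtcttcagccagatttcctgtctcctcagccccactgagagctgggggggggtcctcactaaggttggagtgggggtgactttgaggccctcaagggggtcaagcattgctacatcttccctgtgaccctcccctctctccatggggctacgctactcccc
Elane: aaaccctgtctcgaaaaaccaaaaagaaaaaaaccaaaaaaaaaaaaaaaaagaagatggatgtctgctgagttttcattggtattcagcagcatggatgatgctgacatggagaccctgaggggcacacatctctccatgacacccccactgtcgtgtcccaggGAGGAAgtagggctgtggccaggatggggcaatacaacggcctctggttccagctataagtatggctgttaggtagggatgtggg
Prtn3: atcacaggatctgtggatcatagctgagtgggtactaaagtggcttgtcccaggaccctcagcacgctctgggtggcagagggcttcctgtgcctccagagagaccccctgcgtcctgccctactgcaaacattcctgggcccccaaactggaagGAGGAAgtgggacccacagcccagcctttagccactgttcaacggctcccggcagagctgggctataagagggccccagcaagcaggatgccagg
Ctsg: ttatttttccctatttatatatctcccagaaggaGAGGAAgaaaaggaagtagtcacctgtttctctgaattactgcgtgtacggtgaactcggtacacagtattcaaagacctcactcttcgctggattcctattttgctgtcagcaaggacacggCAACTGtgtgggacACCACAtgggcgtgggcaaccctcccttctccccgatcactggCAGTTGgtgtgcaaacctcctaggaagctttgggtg
Ms4a3: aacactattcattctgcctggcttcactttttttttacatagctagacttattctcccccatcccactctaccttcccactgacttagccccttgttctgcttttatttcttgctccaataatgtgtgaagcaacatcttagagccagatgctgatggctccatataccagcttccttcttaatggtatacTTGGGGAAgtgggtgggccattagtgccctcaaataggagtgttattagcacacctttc
Nkg7: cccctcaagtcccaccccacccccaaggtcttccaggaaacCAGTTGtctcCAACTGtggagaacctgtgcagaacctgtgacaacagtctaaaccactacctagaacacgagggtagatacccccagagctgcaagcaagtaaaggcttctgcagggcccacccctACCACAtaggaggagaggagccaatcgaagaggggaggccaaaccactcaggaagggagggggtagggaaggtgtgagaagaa
GAGGAA occurred before all 4 granule genes and before neither Ms4a3 nor Nkg7, and it occurred in 23.3% of 32851 promoter windows of the same length. It lay 85 bases before the Elane start and 95 bases before the Prtn3 start, counted to its first base, and occurred in 2 copies before Mpo. CAACTG, found in 11.1% of all windows, occurred in 2 copies each before Ctsg and Nkg7. TGTGGT (14.0% of windows) occurred on the opposite strand before Ctsg and Nkg7, and TTNNGNAA (36.8%) only before Ms4a3 among the 6. No match overlapped another. These are matches of letters, and binding was not measured.

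The members are a range cut from a share, not a named cell type. The last cells inside the 10% limit had shares of 3.081, 3.082 and 3.083%, and the first outside had 3.080, 3.079 and 3.074%. Within 10% of the limit lay 273 cells, 66 of them members, and the median share over all kept cells was 0.434%. Along deciles of the summed share, the 4 genes did not scale together. In the WT-labelled library Prtn3 exceeded Elane in the lower deciles, with 193 Prtn3 UMIs per 100 Elane UMIs in the fourth decile, 69.4 in the seventh and 21.7 in the tenth. In the KO-labelled library the values for those deciles were 137, 53.2 and 16.9. Mpo had its lowest ratio to Elane in the middle, with 14.1 UMIs per 100 Elane UMIs in the second decile of the WT-labelled library, 6.52 in the fifth and 17.1 in the tenth. The KO-labelled library had 19.3, 7.54 and 21.2 in these deciles. Ctsg peaked relative to Elane in the middle of the range, at 42.8 per 100 Elane UMIs in the seventh decile of the WT-labelled library and at 81.8 in the sixth decile of the KO-labelled library, against 21.2 and 13.4 in the tenth. Deciles were cut on the sum of these genes, which fixes that the sum increases. Elane supplied most of that sum in the members, so the ratios to Elane are not independent of the cut. They describe the range and are not a result.

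**Figure D2:**
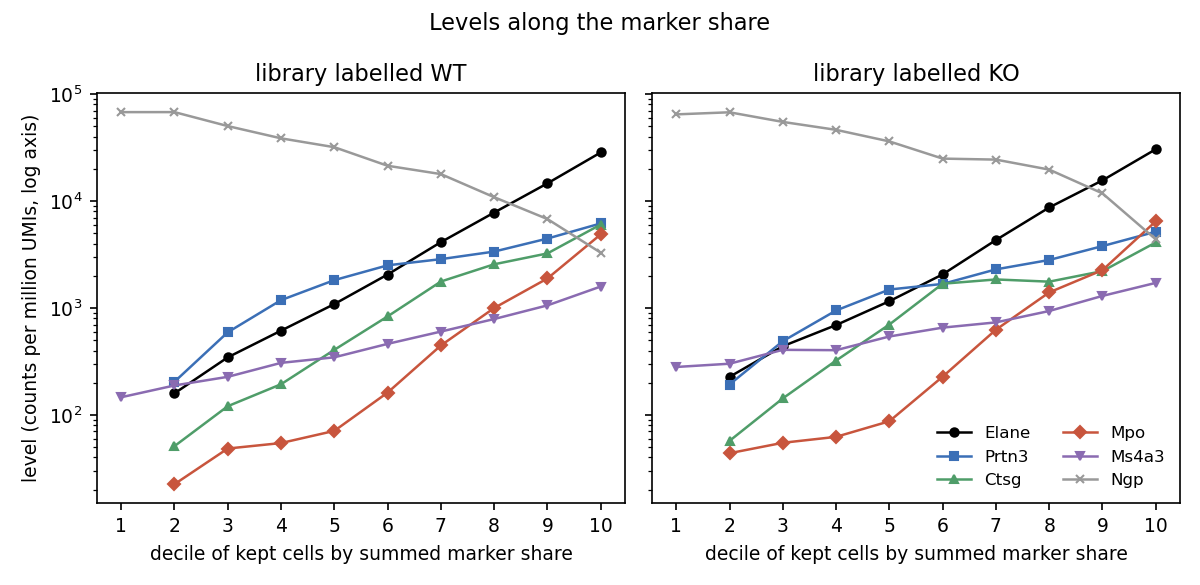
Level (vertical axis, CPM on a log axis) of the 4 rule genes, Ms4a3 and Ngp in deciles of all kept cells ordered by summed marker share (horizontal axis), for each library. The first decile holds no UMI of the 4 genes and has no points for them. Prtn3 is above Elane in the fourth decile and below it in the tenth, and Ngp is at 67778 CPM in the first decile and 3287 CPM in the tenth of the WT-labelled library, and at 64572 and 4378 CPM in the KO-labelled library.

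The label of the cells as progenitors was checked against markers outside the rule. Ms4a3, a membrane gene of granulocyte-monocyte progenitors and of their progeny, had 1519 CPM in members of the WT-labelled library against 607 CPM in the other kept cells, 2.50-fold, and 1548 against 744 CPM in the KO-labelled library, 2.08-fold. Cd34, a surface gene of immature progenitors, went the other way. It had 13.3 CPM in the members against 33.6 CPM elsewhere in the WT-labelled library, and 19.4 against 79.5 CPM in the KO-labelled library. The members held 3 and 2 UMIs of Kit, the stem cell factor receptor gene, in all. Gfi1, a repressor needed for granulocyte development, had log2 ratios of 0.35 and −0.32, and Cebpa, with 30 and 20 UMIs, had 0.32 and 1.16. Of these 5 progenitor genes Ms4a3 alone was 1.5-fold or more higher in both libraries. Kit was as rare elsewhere, with 4.49 and 4.69 CPM in the other kept cells against 3.08 and 4.31 CPM in the members. The wider list held 21 surface genes of granulocyte-monocyte progenitors. Of its 8 robust genes, 2 (Ms4a3 and Plac8) were 1.5-fold or more higher in both and none was lower in both. The summed log2 ratios were 0.61 and 0.54. Against other kept cells below the marker limit that lack a mitotic UMI, 1 was higher in both and 1 lower in both. The sums were then 0.62 and 0.47, and the median log2 ratios −0.19 and −0.03. In CPM the list summed to 10311 in members of the WT-labelled library and 10875 in KO-labelled members. Cells with the highest share of the monocyte genes Irf8, Ms4a6c, Ly86 and Csf1r had 8572.5 and 10520.5 CPM. Those with the highest share of Camp, Ngp, Ltf and Lcn2 had 2685 and 3152 CPM. In the KO-labelled library the list thus hardly set members apart from the monocyte-gene cells. Because Cd34 was lower while other genes of that list were higher, the cells are called by their rule, primary-granule-high cells.

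Markers of other cell classes were summed as lists. Of mast cell, basophil and eosinophil genes, Cpa3, Prss34, Fcer1a and Epx had no UMI in either library and Mcpt8, a basophil protease gene next to Ctsg, had 26 and 13. That list summed to 46.1 CPM in the members of the WT-labelled library and 51.8 CPM in KO-labelled members, against 196 and 305 CPM in the other kept cells, with 6 and 7 of its 12 genes at 0. The red cell and platelet list summed to 40.0 and 62.5 CPM against 320 and 743 CPM, with Itga2b and Car1 at 0 in both. No Cd79a, Cd3e or Cd3g UMI was seen in the members. The lymphoid list summed to 86.1 and 71.2 CPM against 52.2 and 79.5 CPM in the other kept cells, log2 ratios of 0.72 (0.37 to 1.06) and −0.16 (−0.71 to 0.35), and consisted of Cd79b except for 1 UMI of Cd3d. The dendritic list summed to 86.1 and 138 CPM against 142 and 837 CPM, of which Bst2 supplied 78 of 84 and 30 of 64 UMIs, with Siglech at 0 in both libraries. None of the 439 members was among the 741 cells with the highest summed share of Camp, Ngp, Ltf and Lcn2 (0 of 238 and 0 of 201). That set held 10.6% of all kept cells in the WT-labelled library and 9.34% in the KO-labelled library. Of the 742 cells with the highest share of the monocyte genes Irf8, Ms4a6c, Ly86 and Csf1r, 4 and 5 were members. These were 1.68% of the members and 1.12% of the monocyte-gene cells in the WT-labelled library, and 2.49% and 1.3% in the KO-labelled library. The monocyte-gene cells were 9.23% and 10.9% of all kept cells. Members and both sets were cut on shares of the same cell totals, so their overlap is not independent of the choice.

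Genes were then compared between the members and all other kept cells of the same library. Over 2728 robust genes outside the rule, 46 (1.69%) were 1.5-fold or more higher in the members in both libraries and 151 (5.54%) were 1.5-fold or more lower in both. With each cell weighted equally, in place of summed UMIs, the counts were 91 and 175. Because the members were picked from the same cells, these are descriptions without a test. The 15 highest were Nkg7, Gstm1, Ifi27, Srgn, Ms4a3, Mgst2, Clec4b2, Tctex1d1, Prss57, Acot13, Rapsn, 1810006J02Rik, S100a1, Ndufb2 and Gsto1.

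Genes of granule packaging were among them. Nkg7, which encodes a granule membrane protein of cytotoxic lymphocytes and myeloid cells, had 602 CPM in the members of the WT-labelled library and 159 CPM in its other cells, a log2 ratio of 1.92 (1.78 to 2.05). In the KO-labelled library it had 875 against 282 CPM, a log2 ratio of 1.63 (1.48 to 1.79). The level in the cells highest in secondary granule genes was 40.4 CPM in the WT-labelled library and 82.9 CPM in the KO-labelled library. Srgn, the core protein that holds granule proteases, had 4107 against 1788 CPM and 3510 against 1668 CPM. Prss57 had 420 against 190 CPM in the WT-labelled library and 410 against 228 CPM in the KO-labelled library. Cd63, a tetraspanin of the primary granule membrane, had log2 ratios of 0.82 and 0.69. Cst7, an inhibitor of the cathepsin that activates these proteases, was below the detection limit for robust genes and had 70 and 38 UMIs in the members, with log2 ratios of 1.23 and 1.19.

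The list of 20 genes of granule contents and processing outside the rule was mixed. Of its 14 robust members, 4 were higher in both libraries (Prss57, Srgn, Nkg7 and Cd63), 2 were lower (Ctsc and Lyz2), and 8 did neither. Its median log2 ratio was 0.32 in the WT-labelled library and 0.19 in the KO-labelled library, against 0.04 and −0.02 over all robust genes. Against the other kept cells without a mitotic UMI, the medians were 0.10 and 0.17, where those over all robust genes were 0.12 and 0.01. With that reference 3 genes of the list were higher in both libraries and 2 lower, and its summed log2 ratios were −0.02 and 0.07. Ctsc, the dipeptidase that activates Elane, Prtn3 and Ctsg by trimming, had log2 ratios of −0.62 and −1.24, with 87 and 31 UMIs in the members. Lyz2, the lysozyme gene of later granulocytes and of monocytes, had 930 CPM in the members against 3703 CPM elsewhere in the WT-labelled library, and 1307 against 2932 CPM in the KO-labelled library.

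Another group among the highest was made of glutathione-linked enzymes. Gstm1, a glutathione transferase, had 895 against 382 CPM in the WT-labelled library and 938 against 366 CPM in the KO-labelled library, log2 ratios of 1.23 and 1.36. Mgst2 had log2 ratios of 1.24 and 0.95, and Gsto1 had 0.78 and 0.73. These genes do not form a list fixed for this report, so they are given only as members of the 15. Ifi27 had log2 ratios of 1.18 and 1.37, but 24.1% of its 133 UMIs in the members of the WT-labelled library came from 1 cell.

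The production side of secretion was higher by smaller amounts. Of 30 robust genes for import into and folding in the endoplasmic reticulum, 26 were above 0 on the log2 scale in both libraries, where 35.6% of all robust genes were, and 1 of them, Sdf2l1, passed 1.5-fold in both. The summed level of the list was 10712 CPM in the members against 7806 CPM elsewhere in the WT-labelled library, and 10539 against 8228 CPM in the KO-labelled library. Cells highest in monocyte genes were near the members, with 9585 CPM in the WT-labelled library and 10211 CPM in the KO-labelled library. Cells highest in secondary granule genes had 4954 and 5588 CPM. Calr, a chaperone gene, had log2 ratios of 0.71 and 0.48, and Hspa5 had 0.36 and 0.26. Alas1, the first enzyme of heme synthesis, which supplies the heme of myeloperoxidase, had 581 against 359 CPM and 470 against 310 CPM, and it was the only one of 4 robust heme genes past 1.5-fold in both. Ribosomal protein genes made up 19.7% of member UMIs in the WT-labelled library against 14.9% elsewhere, and 17.0 against 12.2% in the KO-labelled library. Their share was 17.0 and 14.4% in cells highest in monocyte genes, and 7.08 and 6.51% in those highest in secondary granule genes. All 82 robust genes of that list were above 0 in both libraries, and none reached 1.5-fold in both. Plac8 and Clec12a, surface or secretory genes of myeloid progenitors, had log2 ratios of 0.65 and 0.64, and of 0.69 and 0.42. Members and other cells differ in depth, and its part in these small ratios was not tested.

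The genes lower in the members included genes of later granulocytes, of monocytes and of dividing cells. The 10 lowest were Stfa2l1, Wfdc17, Spc25, Ltf, Tpm4, Pira2, Racgap1, Ngp, Tacc3 and Kif22. Of 13 robust secondary granule and maturation genes, 8 were lower in both libraries and none was higher, with a median log2 ratio of −1.96 in the WT-labelled library and −1.45 in the KO-labelled library. Ngp, a neutrophil granule protein, had 3438 CPM in the members against 28759 CPM elsewhere in the WT-labelled library, a log2 ratio of −3.06, and 4528 against 33119 CPM in the KO-labelled library, −2.87. Camp, the cathelicidin gene, had 1683 against 15856 CPM and 2997 against 14682 CPM. Ltf, the lactoferrin gene of secondary granules, had 11 and 16 UMIs in the members, log2 ratios of −4.80 and −3.31. Chil3 and Hp were nearer to 0. Chil3, a chitinase-like gene of granulocytes and macrophages, had 23802 CPM in the members of the WT-labelled library against 23592 CPM in its other cells, and 13163 against 15925 CPM in the KO-labelled library, a log2 ratio of −0.27 (−0.31 to −0.24). Hp, the haptoglobin gene, had log2 ratios of −0.04 and 0.03.

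**Figure D3:**
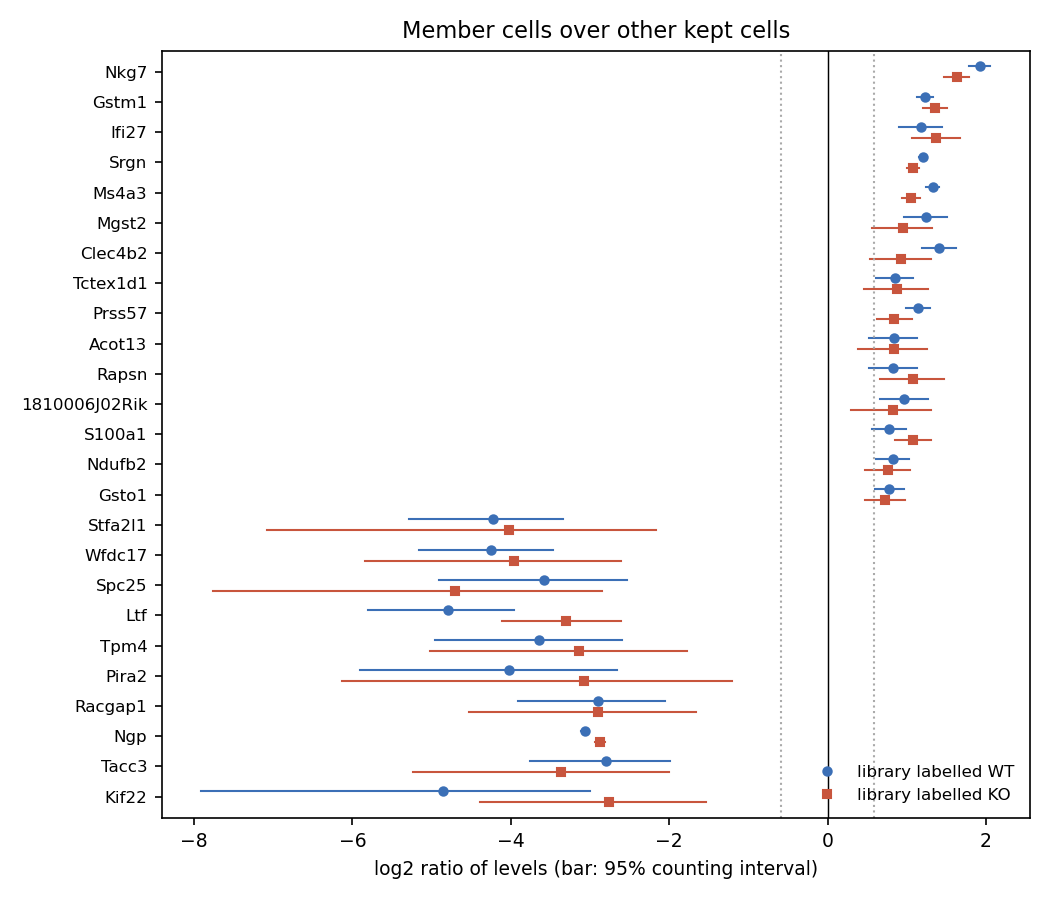
Log2 ratio of the level in member cells over the other kept cells of the same library (horizontal axis) for the 15 highest and 10 lowest robust genes outside the rule. Points are ratios, bars are 95% counting intervals, and dotted lines mark 1.5-fold. Nkg7 leads the higher genes at 1.92 and 1.63, and the intervals of the lower genes are wide because few of their UMIs lay in members, with 11 and 16 for Ltf.

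Several monocyte and macrophage genes were lower as well. Irf8, a transcription factor that directs progenitors to monocytes, had 45.1 CPM in the members against 182 CPM elsewhere in the WT-labelled library and 21.6 against 109 CPM in the KO-labelled library. Of 6 robust monocyte genes, Irf8, Ms4a6c and Ly86 were lower in both libraries, and Ly6c2 was at 0.20 and 0.44. Apoe, Lgals3, Ctss and Psap were lower in both among 8 robust macrophage genes. Among 8 robust lineage transcription factor genes, none was higher in both and 2 were lower, Irf8 and Zeb2. Cebpe, which encodes the factor needed for secondary granules, had log2 ratios of −0.13 and −0.74, Spi1 (PU.1) −0.12 and 0.08, and Myb 0.39 and 0.13. Of 8 robust genes of leukemia self-renewal none passed 1.5-fold in both libraries, where Hoxa9 had log2 ratios of −0.02 and −0.36 and Lmo2 of 0.08 and −0.24. None of 8 robust immediate-early and heat shock genes passed 1.5-fold in both libraries, and their summed log2 ratios were −0.34 and −0.12. Against the other kept cells without a mitotic UMI, however, Fos, Junb, Jund and Dusp1 were lower in both, and the sums were −0.72 and −0.53. Of 2 robust interferon-induced genes, Ifitm3 was at −1.91 and −2.53 and Ifitm2 at −0.38 and −0.18. Cdkn1a, Cdkn2d and Cdkn3 were lower in both among 5 robust genes of cyclin-dependent kinase inhibition, with median log2 ratios of −1.27 and −1.48. Against the other kept cells without a mitotic UMI, 2 of the 5 were lower in both, and the medians were −0.36 and −0.32. None of 7 robust genes of granule sorting, 9 mitochondrial genes and 4 genes of Kat2a-containing complexes passed 1.5-fold in both.

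The non-mitotic label was examined with division genes that the rule did not use. Of 13 robust genes of that list, 11 were lower in the members than in all other kept cells in both libraries, but that reference contains mitotic cells. Against the 2346 and 2028 other kept cells below the marker limit that also lack a UMI of the 5 rule genes, none of the 13 was lower in both and 1, Cks2, a cyclin-dependent kinase subunit gene, was higher (0.85 and 0.70). The summed log2 ratio of the list turned from −1.29 to 0.10 in the WT-labelled library and from −0.99 to 0.27 in the KO-labelled library. Of the lowest genes, Spc25 and Tacc3 then had log2 ratios of 0.42 and 0.29 in the WT-labelled library, and Kif22 had 0.33 in the KO-labelled library. With this reference 86 genes (3.15%) were higher and 183 (6.71%) lower in both libraries. Of the 46 genes higher against all others, 36 remained, and of the 151 lower, 97 remained.

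To compare the shares of cells with a UMI, cells were thinned to 1000 UMIs, which left out 0 and 1 members of the WT-labelled and KO-labelled libraries. Ccnb2, a mitotic cyclin gene, was then found in 2.52% of members in the WT-labelled library (0.93 to 5.41%; 10.1% unthinned) and in 20.8% of the cells with the same marker share that were dropped (14.7 to 27.9%; 50.3% unthinned). The values in the KO-labelled library were 4.50% (2.08 to 8.37%; 6.47% unthinned) and 27.3% (20.2 to 35.4%; 51.0% unthinned). Cdk1 was found in 2.1% and 4.50% of members and in 20.8% and 23.8% of dropped cells. For Ccnb2 and Cdk1 the members lay near other cells without a mitotic UMI, which had Ccnb2 in 2.06% and 3.01% and Cdk1 in 2.19% and 5.16%. At least 1 UMI of the division gene list was found in 79.8% of members against 78.3% of that reference in the WT-labelled library. In the KO-labelled library it was 87.0 against 80.4%, with means of 3.345 and 2.639 UMIs per thinned cell. Cells with a mitotic UMI were set aside before thinning, at unequal depth. The median was 3952 and 2109 UMIs in members and 2073 and 1550 in that reference. Near-equal shares therefore do not show that members and reference cycle equally. These genes belong to the programme that the rule used, so the values check the label and are not a finding.

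Replication genes were mixed. Mcm5, a subunit of the replicative helicase, was found in 6.72% of thinned members in the WT-labelled library (3.89 to 10.7%; 23.1% unthinned), in 9.43% of the dropped cells (5.38 to 15.1%) and in 2.80% of other cells without a mitotic UMI (2.17 to 3.57%). In the KO-labelled library the values were 7.50% (4.26 to 12.1%; 14.4% unthinned), 3.50% (1.14 to 7.97%) and 4.73% (3.81 to 5.80%). Of the 22 genes of DNA synthesis, at least 1 UMI was found in 67.6% of thinned members of the WT-labelled library (61.3 to 73.5%), against 44.7% of other cells without a mitotic UMI (42.7 to 46.8%). In the KO-labelled library these were 68.5% (61.6 to 74.9%) and 58.9% (56.6 to 61.1%). The intervals did not overlap in either library and cover counting error only. By amount, members of the WT-labelled library had a mean of 1.92 UMIs of these genes per thinned cell against 1.09 in that reference, and in the KO-labelled library 1.80 against 1.83. The summed log2 ratios of the unthinned list were 0.52 (0.44 to 0.59) and −0.01 (−0.10 to 0.09). In the KO-labelled library Mcm2 (4.50 against 5.27%), Pcna (12.5 against 18.5%) and Rrm2 (6.00 against 8.12%) were found in a lower share of members than of the reference. Against all other kept cells the list was lower in the members, with sums of −0.23 and −0.48, and 5 of its 15 robust genes were lower in both libraries (Tyms, Rrm1, Rrm2, Fen1 and Gmnn). Rrm2 and Tyms, whose transcripts continue into G2, were at 8.40 and 5.88% of members against 23.3 and 18.2% of dropped cells in the WT-labelled library.

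**Figure D4:**
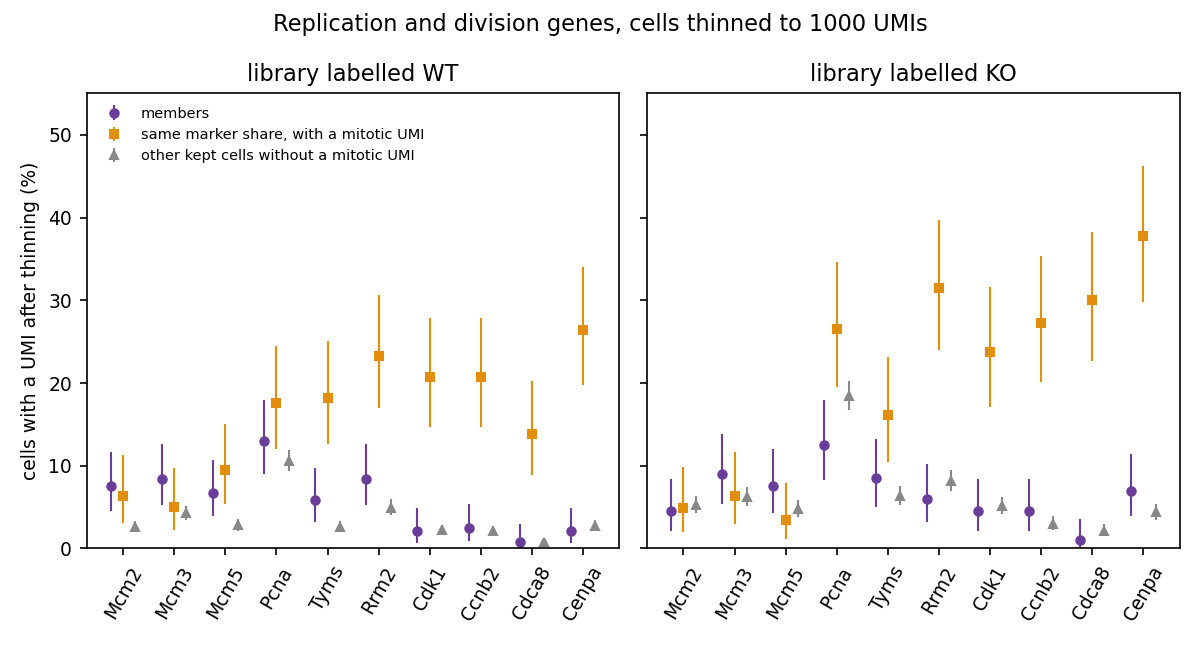
Share of cells with at least 1 UMI (vertical axis, percent) for 10 replication and division genes (horizontal axis) after thinning to 1000 UMIs, in members, in cells of the same marker share dropped for a mitotic UMI, and in other kept cells without a mitotic UMI, for each library. Bars are 95% exact binomial intervals. Members lie beside the non-mitotic reference for Cdk1 and Ccnb2, at 2.1 and 2.52% in the WT-labelled library, and the dropped cells stand above them at 20.8% for both.

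Free RNA in droplets can give UMIs of abundant genes in cells that do not express them. It was not measured here and cannot be told apart from transcripts of the cells themselves. Elane was found in 100% of thinned members, which were chosen on a sum that Elane leads. Among thinned cells highest in secondary granule genes it was found in 31.5% in the WT-labelled library (27.0 to 36.2%). The unthinned share was 48.0%, at a median depth of 2214 UMIs. In the KO-labelled library it was found in 42.3% of these cells (36.9 to 47.8%). The unthinned share was 55.9%, at a median depth of 1884 UMIs. Nkg7 was found in 39.1 and 45.5% of thinned members and in 3.17 and 4.23% of the cells highest in secondary granule genes. Ms4a3 was found in 65.1 and 67.5% against 22.7 and 29.3%. Cd34, in 1.26 and 2.00% of thinned members (unthinned 4.62 and 3.98%), stood against 0.00 and 0.60% there.

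The share of kept cells that were members was 6.16% in the WT-labelled library (238 of 3866, exact binomial interval 5.42 to 6.96%) and 5.67% in the KO-labelled library (201 of 3545, 4.93 to 6.48%). The intervals overlap, and the log2 ratio of −0.12 had a counting interval of −0.40 to 0.16. Before mitotic cells were dropped the shares were 10.3 and 9.70%. Of those cells, 59.9% were free of a mitotic UMI in the WT-labelled library (54.9 to 64.8%) and 58.4% in the KO-labelled library (53.0 to 63.7%), at unequal depth.

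The mix of the 4 rule genes, whose levels in members describe the choice, differed between the libraries. Relative to the WT-labelled library, the KO-labelled members had a higher level of Mpo, a log2 ratio of 0.38 (0.32 to 0.45), and a lower level of Ctsg, −0.60 (−0.68 to −0.53). Elane was at 0.15 and Prtn3 at −0.29. Among the other kept cells Mpo was at 0.19, Ctsg at −0.29, Elane at −0.07 and Prtn3 at −0.34. Mpo, Ctsg and Prtn3 thus had the same direction in both sets of cells, and Elane did not. The rule holds the sum of the 4 genes near the same value in both libraries, so their ratios are not independent of each other. Ctsg was the 1 gene of the 4 past 1.5-fold, and it was at −0.25 in cells with 1000 or more genes.

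Over 2732 robust genes other than the 5 mitotic ones, 239 (8.75%) were 1.5-fold or more higher in the members of the KO-labelled library and 286 (10.5%) were 1.5-fold or more lower, with a median log2 ratio of 0.01. In the other kept cells, with 10693850 and 7456452 UMIs, the counts were 99 and 99. Of the genes past the limit, 55 were higher in both sets of cells (23.0% of those in members and 55.6% of those elsewhere) and 60 were lower in both (21.0% and 60.6%). Restricted to the 2008 of these genes with 100 or more UMIs over the members, the counts in members were 155 and 151.

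Among genes with 100 or more UMIs the 10 highest ratios were those of Pmaip1, Dusp2, Zfp787, Hmgn1, Gm8797, Serpine2, Srp68, Nme2, 2310039H08Rik and Ginm1. Pmaip1, which encodes the pro-apoptotic protein Noxa, had 125 CPM in members of the WT-labelled library and 347 CPM in KO-labelled members, a log2 ratio of 1.47 (1.12 to 1.82), and 0.75 in the other cells. Dusp2, a phosphatase of MAP kinases, had 110 and 300 CPM, a log2 ratio of 1.45 (1.08 to 1.83), with 13.7% of its UMIs in the KO-labelled library from 1 cell. Gm8797, a predicted gene, was at 1.29 in the members and 1.23 elsewhere, and Hmgn1, a nucleosome-binding protein gene, at 1.29 and 1.21, close to each other in both sets of cells. 2310039H08Rik was at 1.12 (0.59 to 1.65) in the members and 0.09 elsewhere.

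The 10 lowest ratios were those of Eif5b, Tpr, BC018473, Ptges3, Atp6v1a, Eif3a, Vim, F10, Lyl1 and Cdkn1c. Eif5b, which joins the ribosomal subunits at initiation, had 139 CPM in the members of the WT-labelled library and 34.5 CPM (16 UMIs) in KO-labelled members, a log2 ratio of −2.01 (−2.86 to −1.26), against −0.23 in the other cells. In the WT-labelled library 15.4% of its UMIs came from 1 cell, and the ratio was −1.97 without the leading cell of each library. Eif3a, another initiation factor gene, was at −1.58 (−2.51 to −0.76) and −0.97. Vim, the intermediate filament gene, had 369 and 134 CPM, −1.46 in the members and −0.75 elsewhere. F10, the coagulation factor X gene, was at −1.44 and −1.23, and Lyl1, a hematopoietic transcription factor gene, at −1.39 and −0.63.

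**Figure D5:**
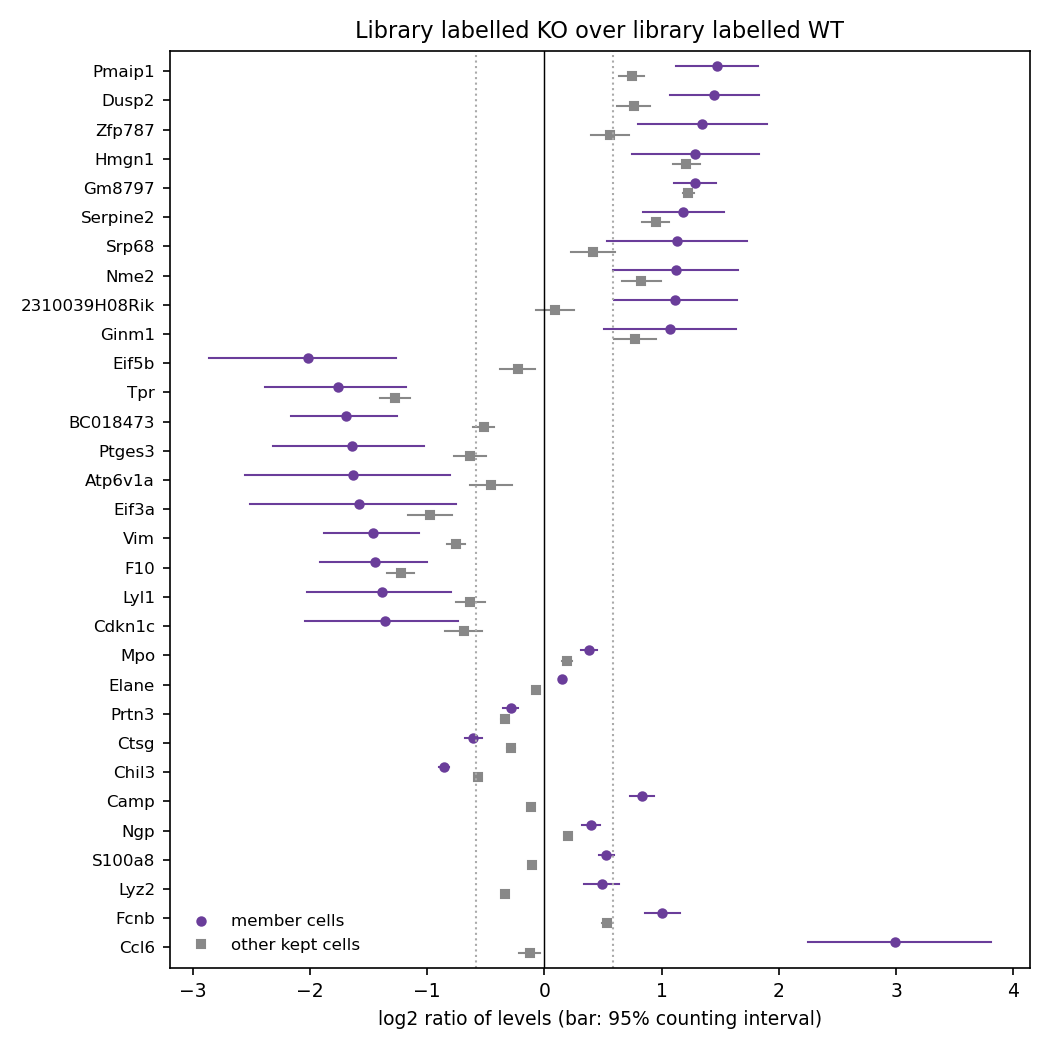
Log2 ratio of the level in the KO-labelled library over the WT-labelled library (horizontal axis) in member cells and in the other kept cells, for the 10 highest and 10 lowest genes in members and for 11 granule, maturation and macrophage genes. Points are ratios, bars are 95% counting intervals, and dotted lines mark 1.5-fold. Eif5b stands at −2.01 in members and −0.23 elsewhere, and Camp at 0.83 and −0.11, whereas Gm8797 and Hmgn1 have like ratios in both.

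By list, maturation genes gave no common direction between the libraries. Of 13 robust secondary granule genes in the members, Camp, Ltf and Itgam were 1.5-fold or more higher in the KO-labelled library, Chil3 was lower and 9 were neither. Chil3 had 23802 and 13163 CPM, a log2 ratio of −0.85 (−0.90 to −0.81), and −0.57 elsewhere. Camp had 1683 and 2997 CPM, a log2 ratio of 0.83 (0.73 to 0.94), which was −0.28 in cells with 1000 or more genes. S100a8 was at 0.53, and at −0.35 in cells with 1000 or more genes, and Lyz2 was at 0.49, against −0.11 and −0.34 in the other cells. The summed log2 ratio of the list was −0.26, and −0.81 in cells with 1000 or more genes. Fcnb, a ficolin gene of granulocyte granules, had 747 and 1503 CPM, a log2 ratio of 1.01 (0.86 to 1.16), and 0.53 elsewhere. Cebpe was at −0.65 (−0.93 to −0.37) in the members and −0.04 elsewhere, and Gfi1, with 70 and 15 UMIs, at −1.15 (−2.06 to −0.33). Irf8, F13a1 and Ccr2 were lower in the KO-labelled library among 6 robust monocyte genes, and none was higher. Of 8 robust macrophage genes, Apoe, Ccl6, Ctss and Cd68 were higher and Lgals3 was lower. Ccl6 had 19 UMIs in members of the WT-labelled library and 72 in KO-labelled members, and 68.1% of the latter came from 1 cell, and the log2 ratio of 2.99 was 1.51 without the leading cells. Retnlg, with 6 and 29 UMIs, likewise had 62.1% of its UMIs in the KO-labelled library in 1 cell.

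Among 8 robust immediate-early and heat shock genes, 4 (Junb, Jund, Dusp1 and Ier2) were 1.5-fold or more higher in the KO-labelled members, where 8.75% of all robust genes were, and none was 1.5-fold or more lower. Dusp1 had 821 and 1632 CPM, a log2 ratio of 0.99 (0.85 to 1.14), and 0.46 elsewhere. The summed level of the list was 6020 CPM in the WT-labelled library and 8499 CPM in the KO-labelled library, a log2 ratio of 0.50 (0.44 to 0.56). This ratio was 0.28 in the other kept cells, and 0.23 in members with 1000 or more genes. Handling and genotype cannot be told apart with 1 library each. Ribosomal protein genes summed to 19.7% of member UMIs in the WT-labelled library and 17.0% in the KO-labelled library, and 3 of 82 robust ones were 1.5-fold lower (Rps12, Rpl39 and Rps10). Of 30 robust endoplasmic reticulum genes, 1 was lower (Pdia4, −0.79) and none was higher. Hoxa9, at −0.90 (−1.41 to −0.42), and Cdk6, at −0.68, were lower and Eya1, at 0.74, was higher among 8 robust self-renewal genes. None of 4 robust genes of Kat2a-containing complexes, 4 of heme synthesis, 8 of progenitor surface and 2 of the interferon response was past 1.5-fold, and Kat2a itself was not robust. Rab27a, a granule secretion gene, was lower (−1.18) among 7 robust sorting genes, and mt-Atp6 was higher (0.78) among 9 mitochondrial genes. Cdkn1c and Cdkn2c were lower and Cdkn1a was higher among 5 robust genes of cyclin-dependent kinase inhibition, the last with 18 and 20 UMIs. Of 13 robust division genes Cdc20, Cenpa, Cdca3 and Smc4 were higher and Aurkb was lower, on 5 to 86 UMIs per gene in the WT-labelled library. The summed log2 ratio of that list was 0.52 (0.42 to 0.62) in the members and 0.22 elsewhere. Cells with a mitotic UMI were dropped at their own depth, which was lower in the KO-labelled library. The part of this filter in the division gene ratios was not tested. Of the Smc4 UMIs in the KO-labelled library 42.7% came from 1 cell. Rpa2 was higher among 15 robust DNA synthesis genes.

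Variability between member cells was compared by the CV (coefficient of variation, the SD divided by the mean) of 2732 robust genes. At the own depth of each cell, the median CV was 1.84 in the WT-labelled library and 2.47 in the KO-labelled library, and the median log2 ratio, KO over WT, was 0.43, with 93.6% of genes above 0. With cells thinned to 1000 UMIs the CVs had medians of 3.18 and 3.27, their log2 ratio had a median of 0.06, and 57.3% of 2729 genes were above 0. In the other kept cells the ratios were 0.20 and 0.02. Depth per cell also differed between the libraries, with member medians of 3952 and 2109 UMIs. Among the 4 rule genes the thinned log2 ratios were −0.01 for Mpo, 0.06 for Elane, −0.10 for Prtn3 and 0.33 for Ctsg.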

How the data were processed

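Libraries were made with 10x Genomics 3′ chemistry and sequenced on an Illumina NextSeq. Per the labels, the authors used Cell Ranger 1.3.1 and the mm10 build (the methods of the study name another version, and which one made the matrix is not known), and deposited 1 unnormalized matrix of UMI counts with 27998 genes and 8309 cells. Positions came from GENCODE M21, which held 27645 of the gene identifiers. From these counts, cells with 500 or more genes were kept, UMIs were summed per library and cell set and scaled to CPM, and log2 ratios were given exact conditional binomial intervals at 95%. All intervals cover counting error only. With 1 library per genotype no test was possible. A gene was counted at 1.5-fold or more, in both libraries where members were compared with other cells. The genes named were the rule genes, Kat2a, the 15 highest and 10 lowest robust genes by the smaller of their 2 log2 ratios, the 10 largest rises and falls between libraries with 100 or more member UMIs, and genes of the lists. Members, lists and motifs were chosen with earlier results of these data known. The ratio calculation was tested on simulated counts. Doublets were kept. Scrublet (scanpy 1.11.5) called 0.319% and 0.0943% of cells of the WT-labelled and KO-labelled libraries and was not relied on at such rates. The 5% of cells with the highest scores were left out as an alternative. Cebpd and Igkc were not analysed here. Python 3.11.15, numpy 2.4.6, scipy 1.17.1, pandas 2.3.3 and matplotlib 3.10.9 were used.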

Additional observations from a re-analysis of the deposited data

Results flagged for a closer look

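Cells with fewer than 500 genes were used in no comparison. In the KO-labelled library 5 of 695 such cells (0.719%, exact binomial interval 0.234 to 1.67%) had a summed share of the 4 granule genes at or past the limit for members, all without a UMI of the mitotic genes, with a median of 942 UMIs. In the WT-labelled library it was 0 of 203 (0%, upper bound 1.80%).

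For 4 named robust genes outside the rule, each 1.5-fold or more apart between the libraries in the members, the ratio had the opposite sign in the other kept cells, with neither counting interval reaching 0. The difference between the cell sets was not tested, since there is 1 library per genotype. Camp was at 0.83 in the members and −0.11 elsewhere, and at −0.28 in members with 1000 or more genes. Apoe was at 0.64 and −0.34, on 66 and 49 UMIs in the members, and it was 0.049 in the members with 5% of cells kept and 1.37 with 1000 or more genes per cell. Smc4 was at 0.88 and −0.31, and it was 0.14 in the members without the leading cell of each library, 1 cell holding 42.7% of its UMIs in the KO-labelled library. Ccl6 was at 2.99 and −0.13, and it was 1.51 without the leading cells and 1.37 without the cells of the 5% highest Scrublet scores.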

How the results depend on the processing

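No paired analysis was possible because each genotype had a single library. Alternatives changed the choice of members, the reference, the scaling or the limit. Comparison with cells lacking a mitotic UMI, exclusion of shared barcodes, equal weighting of cells and exclusion of the leading cell of each gene were chosen after seeing the data. Main counts were 46 genes higher and 151 lower in members, and 239 higher and 286 lower in the KO-labelled library. With 1000 or more genes per cell (130 and 47 members) 248 were lower in members, 542 higher and 757 lower in the KO-labelled library, the log2 ratio of member shares was −0.47, the median log2 CV ratio 0.17, and Camp turned to −0.28. With 20% of cells, 183 were lower in the KO-labelled library. With mitotic cells kept it was 168, and in the KO-labelled library Racgap1 turned to 0.30 and the sum of division genes to 0.092 against other cells. Against cells lacking a mitotic UMI 86 genes were higher in members, Spc25 and Tacc3 turned to 0.42 and 0.29 in the WT-labelled library, Kif22 to 0.33 in the KO-labelled library, and the sum of division genes to 0.10 and 0.27. A filter of 2% of cells gave 169, 594, 934 and 1475, and a limit of 2-fold gave 5, 84, 47 and 62, in the order of the main counts. Genes with 100 or more member UMIs gave 155 and 151 between libraries. Equal weighting gave 91 higher in members. Thinning to 1000 UMIs gave a log2 CV ratio of 0.057. The other 52 of 72 values of these summaries stayed within 1.5-fold or the counting interval. Of 983 alternative values for 90 single ratios past 1.5-fold, 930 kept their side of the limit, and another 7, for 4 low genes, could not be had because members held no UMI of the gene. Leaving out shared barcodes gave 47, 151, 235 and 285.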

Other observations

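Within the members, Prtn3 had 22.6 UMIs per 100 Elane UMIs in the WT-labelled library and 16.7 in the KO-labelled library. Both are genes of the rule, and the difference was not particular to the members. The ratio was lower in the KO-labelled library in every decile of kept cells from the second to the tenth, with 193 and 137 in the fourth.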
